A study of Mus musculus with 9 samples.

Results

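Sequencing reads from 3 microRNAs best known from red blood cells, miR-451a, miR-144 and miR-486, were followed in epididymosomes of the mouse epididymis. They were chosen by name, with earlier results of these data known, as 5 of the 358 miRNAs in the deposited table (miR-451a, miR-144-3p, miR-486a-5p, miR-486b-5p and miR-486a-3p). miR-486a-5p and miR-486b-5p differed by at most 0.385% in any library and share their reads, so that the 5 names held 4 distinct profiles, and miR-486b-5p is not described further except in counts of names. miR-144-5p, miR-486b-3p and miR-451b, the other products named from the same hairpins, are not in the table.

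Epididymosomes are small membrane vesicles that the epididymal epithelium sheds into the lumen, where spermatozoa meet them on the way from the caput through the corpus to the cauda. They were collected from the luminal fluid of these 3 segments in inbred Swiss male mice aged 8 weeks, for which no treatment or altered allele is named, and the study asked how their miRNA cargo changed between segments. Each segment had 3 libraries, and each library was made from RNA pooled over several mice, so that a replicate was a pool and not an animal. A pair of steps in the collection bears on miRNAs of blood: the vessels were flushed with PBS before dissection, and the vesicle preparations were screened by immunoblotting for a haemoglobin chain. The study reported that this chain was not detected in them.

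miR-451a and miR-144 are made from one transcript that the transcription factor GATA1 drives in erythroid cells. miR-451a is unusual in that its hairpin is too short for Dicer and is cut by Argonaute 2 instead, so that the mature miRNA runs across the stem into the loop. miR-486 comes from an intron of Ank1, the gene of the membrane skeleton protein ankyrin-1, and is abundant in red blood cells and also in striated muscle, where a second promoter of Ank1 is active.

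The mature sequences below show what was counted for miR-451a and miR-144-3p. The capitals mark the seed, bases 2 to 8, by which a miRNA recognises its targets. miR-101a-3p is shown because it is the only other miRNA among those with a sequence that shares bases 2 to 7 with miR-144-3p, from which it differs within the seed only at the last base. The sequences are those of RefSeq for GRCm38.p6, in which 299 of the 358 names had a mature sequence. The miR-486 names had none there and are not shown. No other name with a sequence carried the seed of miR-451a.
miR-451a: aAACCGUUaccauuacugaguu
miR-144-3p: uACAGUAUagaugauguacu
miR-101a-3p: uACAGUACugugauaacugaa

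miR-451a is encoded at chr11:78073186-78073207 on the plus strand and miR-144-3p at chr11:78073047-78073066 on the same strand (GRCm38). Their hairpins, Mir144 at chr11:78073005-78073070 and Mir451a at chr11:78073170-78073241, lie 99 bases apart in intergenic sequence between Flot2 and Eral1, and the nearest edge of Eral1 lies 134 bases beyond Mir451a. Mir451b is annotated on the opposite strand at the coordinates of Mir451a. The hairpins are given here to show the different placement of the mature products, which are in capitals. In the 72 bases of Mir451a the mature miRNA fills positions 17 to 38, while in the 66 bases of Mir144 the 5p product fills positions 6 to 28 and the 3p product positions 43 to 62.
Mir451a: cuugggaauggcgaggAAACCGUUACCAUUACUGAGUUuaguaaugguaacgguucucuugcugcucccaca
Mir144: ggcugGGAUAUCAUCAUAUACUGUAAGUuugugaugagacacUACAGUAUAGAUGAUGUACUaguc

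Mir486 is annotated at chr8:23142555-23142682 on the plus strand, and Mir3107, which RefSeq lists also as mir-486b, at chr8:23142573-23142662 on the minus strand within it. Both lie in introns of Ank1 (chr8:22974844-23150497, plus strand) and of the antisense gene Gm15816, and no exon of the 16 transcripts that span Mir486 overlaps it. GGAG and CCCU, short motifs that have been linked to the loading of miRNAs into vesicles, were looked for beyond the midpoint of each mature miRNA. GGAG was present in 7 and CCCU in 8 of the 299 sequences (2.34% and 2.68%), and neither was present there in miR-451a or miR-144-3p. The miR-486 names, which had no sequence, were not searched.

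The libraries held between 1548581 and 11306605 reads on miRNAs, and the medians were 8453380 for caput, 2553385 for corpus and 2184582 for cauda libraries. The values are CPM, reads of a miRNA scaled to a common total of reads on miRNAs per library, and 3 reads corresponded to between 0.265 and 1.94 CPM. In all 3 segments miR-10a-5p and miR-10b-5p took a large share of the reads, which came to 50.5 to 71.3% for the caput, 50.3 to 53.2% for the corpus and 33.2 to 34.5% for the cauda. The second caput library stood apart in this, with the highest share and a TMM scaling factor of 0.478 against 0.753 to 1.29 in the others. With scaling to the library total, the median miRNA tested had a log2 fold change of 0.47 from caput to corpus, 0.18 from corpus to cauda and 0.81 from caput to cauda. With TMM normalisation, which scales to the bulk of miRNAs, these medians were -0.10, 0.08 and 0.07, and the changes are therefore given also relative to the median. The numbers of miRNAs higher and lower were 61 and 11, 48 and 17, and 135 and 36 for the 3 comparisons in this order, and with TMM 42 and 49, 56 and 34, and 84 and 73. In bulk vesicle RNA a change in the number of vesicles of a kind cannot be told apart from a change in the RNA that each one carries.

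Of the 4 profiles, miR-486a-5p was the most abundant in all segments by mean CPM, followed by miR-451a, miR-144-3p and miR-486a-3p in the caput and corpus. In the cauda the mean of miR-486a-3p lay just above that of miR-144-3p, and the libraries of the pair overlapped. Among the 358 miRNAs miR-486a-5p ranked 92 (caput), 90 (corpus) and 39 (cauda) by mean CPM. miR-451a ranked 175, 107 and 112, and miR-144-3p ranked 325, 311 and 298. Only in the corpus did miR-451a and miR-486a-5p overlap between libraries. Summed over the distinct profiles the reads came to 122 to 468 CPM in caput, 234 to 659 CPM in corpus and 1606 to 2225 CPM in cauda libraries.

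**Figure D1:**
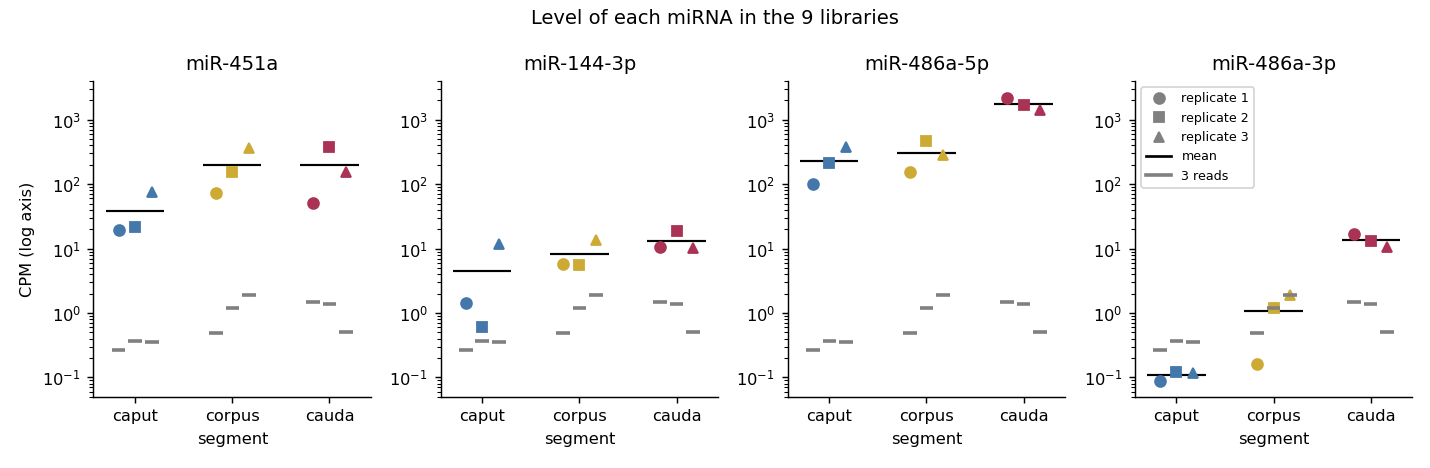
CPM of miR-451a, miR-144-3p, miR-486a-5p and miR-486a-3p (log axis) in the 3 libraries of each segment, with a black line at the segment mean and a grey mark at the CPM of 3 reads in each library. Both miR-486 arms stand apart from the other segments in the cauda, whereas the libraries of miR-451a spread over 52.0 to 380 CPM in the cauda alone.

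miR-486a-5p, the dominant arm of the miR-486 hairpin, accumulated in the cauda. Its 3 caput libraries held 101, 210 and 380 CPM (1145, 1737 and 3216 reads). The corpus libraries held 156, 471 and 281 CPM (965, 1202 and 435 reads), and the cauda libraries 2145, 1673 and 1428 CPM (4293, 3654 and 8421 reads). The caput and corpus libraries overlapped, and every cauda library lay above all 6 of the others. The means were 231 ± 141, 303 ± 159 and 1749 ± 365 CPM (SD, n = 3 each), the highest over the lowest library being 3.76-fold in the caput and 1.5-fold in the cauda.

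From corpus to cauda miR-486a-5p rose by 2.65 on the log2 scale (SE 0.50, a 6.27-fold change, limma adjusted p = 0.0014), which was 2.47 above the median miRNA and placed it 12 of 342. From caput to cauda it rose by 3.10 (SE 0.50, 8.54-fold, limma adjusted p = 1.3e-04), 2.28 above the median. From caput to corpus the difference was 0.45 (SE 0.50, 95% interval -0.60 to 1.5, limma adjusted p = 0.526) and lay at the median of all miRNAs, -0.02 from it. With TMM the sign of this difference turned, to -0.13. Over the alternatives of scaling, pseudocount, filter, model and left-out library, the rise into the cauda passed the test each time, at 2.19 to 3.04 from the corpus and 2.27 to 3.55 from the caput. All fold changes are on the scale of log2(CPM + 1), which understates the changes of low miRNAs.

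miR-486a-3p, the opposite and much rarer arm of the same hairpin, was barely sequenced outside the cauda. Each caput library had 1 read (0.0884, 0.121 and 0.118 CPM), and the corpus libraries had 1, 3 and 3 reads (0.162, 1.17 and 1.94 CPM). In the cauda there were 34, 29 and 62 reads (17, 13.3 and 10.5 CPM), well above the other segments in every library. Pooled over libraries, 3 caput, 7 corpus and 125 cauda reads gave a cauda to corpus ratio in CPM of 18.2 (95% counting interval 8.59 to 46.3) and a cauda to caput ratio of 116 (38.7 to 569). These intervals cover counting error only, since the reads of the 3 libraries of a segment were pooled and the spread between libraries was left out. The reads also carry no molecular identifiers. From corpus to cauda the fitted change was 2.88 on the log2 scale (SE 0.50, limma adjusted p = 7.2e-04) and from caput to cauda 3.69 (SE 0.50, limma adjusted p = 2.9e-05). Its size moved with the pseudocount, between 1.08 and 4.12 from the corpus and between 1.21 and 6.34 from the caput over the alternatives in which it was tested, without losing the call. The mean of miR-486a-3p reached the 10 CPM needed for a test only in the cauda. It thus entered these tests through the segment in which it was highest, and its calls lend no support.

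miR-486a-5p reads per miR-486a-3p read numbered 126, 126 and 136 in the cauda libraries. In the corpus they numbered 965, 401 and 145 and in the caput 1145, 1737 and 3216, where the ratio rests on 1 to 3 reads of the 3p arm. The log2 ratio, computed with 0.5 CPM added to each arm, was 6.96 ± 0.05 in the cauda, 7.62 ± 0.68 in the corpus and 8.37 ± 0.92 in the caput (SD, n = 3 each). An exact permutation test of F over all 280 divisions of the libraries, one-sided by construction, gave p = 0.1, or 0.15 after Benjamini-Hochberg adjustment over 3 ratios. The direction depended on the pseudocount, the cauda minus caput difference being -1.41 with 0.5 CPM, -2.91 with 0.1 CPM and 0.22 with 2 CPM, the last of which is far above the caput level of miR-486a-3p (a mean of 0.109 CPM). Summed over libraries there were 3 reads of the 3p arm beside 6098 of the 5p arm in the caput, and 125 beside 16368 in the cauda.

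miR-451a, the most restricted of these miRNAs to erythroid cells, followed another course along the tract. The caput libraries held 19.5, 21.5 and 76.1 CPM (221, 178 and 643 reads). The corpus libraries held 72.2, 157 and 363 CPM (447, 401 and 562 reads), and the cauda libraries 52.0, 380 and 157 CPM (104, 830 and 925 reads). The third caput library reached above the lowest library of the corpus and of the cauda, so that the caput overlapped with both, and corpus and cauda covered much the same range. The means were 39.0 ± 32.1, 197 ± 149 and 196 ± 167 CPM (SD, n = 3 each), and libraries of one segment differed by up to 3.89-fold in the caput, 5.03-fold in the corpus and 7.31-fold in the cauda. Every library had more than 100 reads of miR-451a, and counting error is small beside this spread.

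From caput to corpus miR-451a rose by 2.29 on the log2 scale (SE 0.71, 4.91-fold, limma adjusted p = 0.028), 1.83 above the median miRNA and 17 from the top of 321. This call depended on scaling and on single libraries. With TMM the change was 1.73 (adjusted p = 0.067), with median-of-ratios size factors 1.79 (adjusted p = 0.059) and with library totals that leave out miR-10a-5p and miR-10b-5p 1.95 (adjusted p = 0.057), all by limma. Relative to the median miRNA it was 1.84 with TMM, against 1.83. Leaving out the first or the second caput library, or the second or the third corpus library, gave limma adjusted p of 0.059, 0.124, 0.051 and 0.114 in this order, with changes of 1.95, 2.02, 2.31 and 1.71. Tested against a fold of 2 in place of no change, the adjusted p by limma was 0.404. The direction was the same under every alternative run, with a range of 1.71 to 2.91.

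From corpus to cauda miR-451a differed by -0.13 (SE 0.71, 95% interval -1.63 to 1.36, limma adjusted p = 0.905), an interval wide enough to hold a change of more than 2-fold either way. The value was 0.45 without the third corpus library and 0.60 without the first cauda library, neither past the test. From caput to cauda it rose by 2.16 (SE 0.71, 4.47-fold, limma adjusted p = 0.018), 1.35 above the median and 58 of 349. That call was lost with TMM (1.5, adjusted p = 0.082), with median-of-ratios factors (1.46, adjusted p = 0.090) and with totals without the miR-10 pair (1.36, adjusted p = 0.125). It was lost as well without the second caput library (1.89, adjusted p = 0.099) and without the second cauda library (1.47, adjusted p = 0.116), which had the highest level of all 9. Tested against a fold of 2 it was 0.205 by limma.

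miR-144-3p, which shares its primary transcript with miR-451a, was low throughout. The caput libraries held 1.42, 0.604 and 11.6 CPM (16, 5 and 98 reads), the corpus libraries 5.82, 5.48 and 13.6 CPM (36, 14 and 21 reads) and the cauda libraries 10.5, 18.8 and 10.2 CPM (21, 41 and 60 reads). The third caput library was higher than 2 of the 3 cauda libraries, and all segments overlapped. The means were 4.54 ± 6.12, 8.29 ± 4.57 and 13.1 ± 4.87 CPM (SD, n = 3 each). miR-144-3p rose from caput to cauda by 1.90 on the log2 scale (SE 0.65, 3.73-fold, limma adjusted p = 0.023), 1.09 above the median and 78 of 349. Its mean reached 10 CPM, the level needed for a test, only in the cauda, where it was highest. This call therefore lends no support. The call was lost with TMM (1.48, adjusted p = 0.0502), with median-of-ratios factors (1.43, adjusted p = 0.057), with totals without the miR-10 pair (1.49, adjusted p = 0.090) with a pseudocount of 10 CPM (0.73, under a fold of 2) and in a test against a fold of 2 (adjusted p = 0.276). Without the first caput, the second caput or the second cauda library the adjusted p was 0.069, 0.135 and 0.084, at changes of 1.60, 1.31 and 1.63. The difference from corpus to cauda was 0.66 (SE 0.65, limma adjusted p = 0.522), and from caput to corpus the miRNA was below the level tested, a mean of 10 CPM in either segment.

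A miRNA was called at a limma adjusted p under 0.05, over all miRNAs tested, and a change of at least 2-fold. From caput to corpus 3 of the 5 names were tested and 1, miR-451a, was called higher, where 19.0% of all 321 tested miRNAs were called higher. None of the 3 had corpus libraries all above the caput libraries, which 29.3% of the 321 had. From corpus to cauda all 5 names were tested and 3, those of miR-486, were called higher, against 14.0% of 342 miRNAs, and the same 3 had no overlap between libraries, against 30.1%. From caput to cauda all 5 were called higher, against 38.7% of 349 miRNAs, and those of miR-486 were again without overlap, against 42.4%. 2 of these names share reads, and miR-144-3p and miR-486a-3p reached 10 CPM only in the cauda, so that they entered the test through the segment in which they were highest and the counts for the cauda lend no support. The comparisons share libraries and are not independent of each other.

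**Figure D2:**
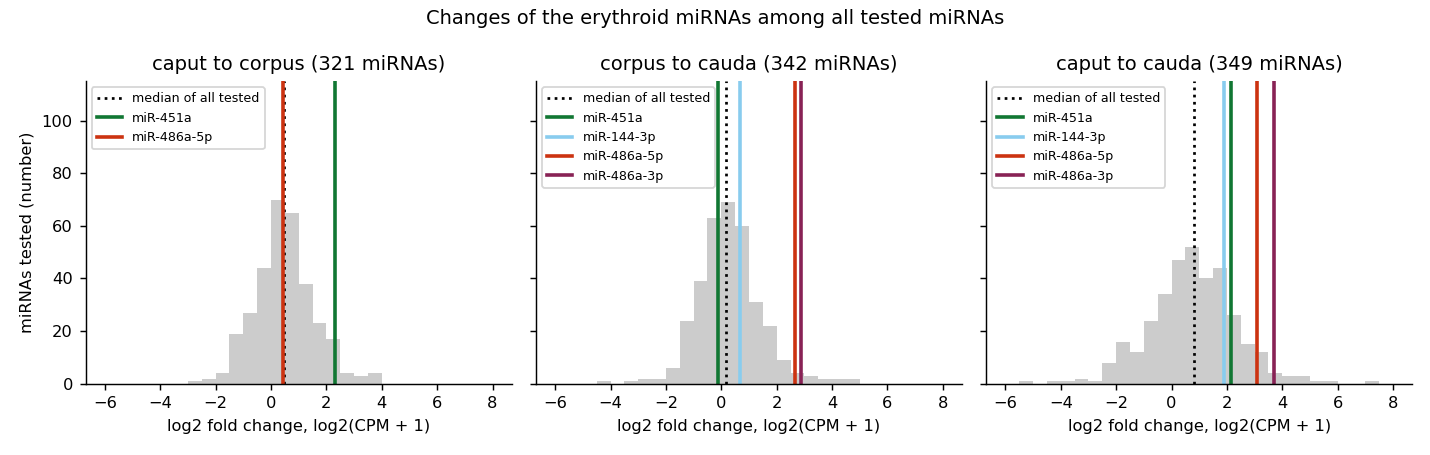
Number of miRNAs tested (vertical axis) by log2 fold change of CPM (horizontal axis) in the 3 comparisons, with a dotted line at the median of all tested miRNAs and a coloured line for each of the 4 miRNAs that was tested. miR-451a lies 1.83 above the median from caput to corpus and near it from corpus to cauda, where miR-486a-5p lies 2.47 above it.

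**Figure D3:**
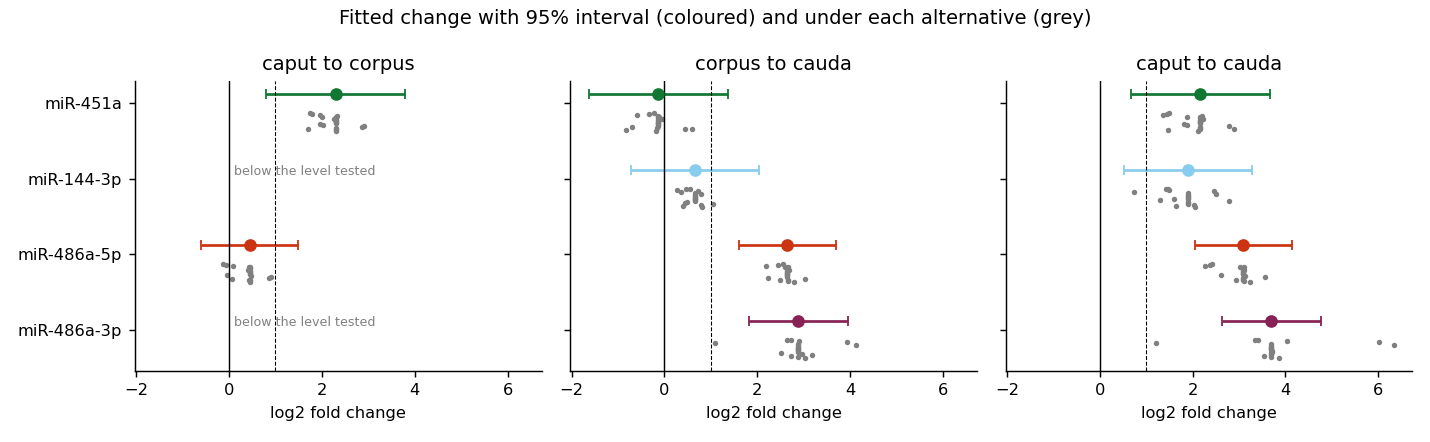
Log2 fold change of each miRNA with its 95% interval (coloured, all 9 libraries) and under each alternative of scaling, pseudocount, filter, model, threshold or left-out library (grey points) in the 3 comparisons, with a solid line at no change and a dashed line at 2-fold. The points of miR-486a-5p stay at 2.19 and above from corpus to cauda, and those of miR-451a fall on both sides of 0 there.

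A ratio of reads within a library does not depend on its scaling, and 3 were formed. The log2 ratios that were tested have 0.5 CPM added to each level and so depend on scaling for low miRNAs. miR-486a-5p had 5.18, 9.76 and 5.0 reads per read of miR-451a in the caput libraries. In the corpus the ratio was 2.16, 3.00 and 0.774, and in the cauda 41.3, 4.40 and 9.10. All 3 corpus libraries lay below all of the others, and in the third of them miR-451a was the more abundant. The caput and cauda libraries overlapped. The log2 ratio was 2.64 ± 0.54 in caput, 0.77 ± 1.02 in corpus and 3.56 ± 1.64 in cauda libraries (SD, n = 3 each), and the exact permutation test of F gave p = 0.046, or 0.139 after adjustment over the 3 ratios, where the smallest p that the 280 divisions allow is 0.0036. Without the second cauda library the adjusted p was 0.032 by the same exact permutation test.

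miR-144-3p had 0.0724, 0.0281 and 0.152 reads per read of miR-451a in the caput libraries. The corpus ratios were 0.0805, 0.0349 and 0.0374, and the cauda ratios 0.202, 0.0494 and 0.0649. The segments overlapped throughout, and the exact permutation test of F gave p = 0.436. Over the 9 libraries miR-144-3p and miR-451a had a Pearson r of 0.83 on the scale of log2(CPM + 1). The r was 0.49 between miR-451a and miR-486a-5p, 0.67 between miR-144-3p and miR-486a-5p and 0.94 between the miR-486a arms. These correlations describe 9 libraries that share segments and scaling, and they include the differences between segments.

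**Figure D4:**
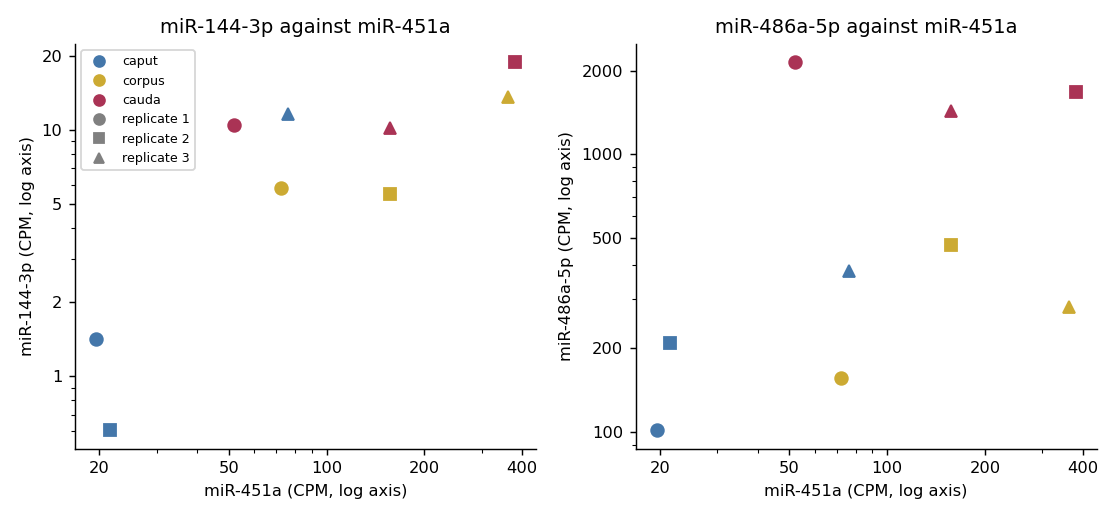
miR-144-3p (left) and miR-486a-5p (right) against miR-451a in each of the 9 libraries, CPM on log axes, with the segment by colour and the replicate by shape. On the right the 3 cauda libraries lie above all others at 1428 to 2145 CPM of miR-486a-5p, while their miR-451a runs from 52.0 to 380 CPM.

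The miRNAs whose levels followed each profile most closely over the 9 libraries were found by Pearson r of log2(CPM + 1), as a description. For miR-451a these were miR-132-3p (r = 0.89), miR-1198-5p, miR-381-3p, miR-152-3p and miR-15b-3p. For miR-144-3p they were miR-136-3p (r = 0.94), miR-136-5p, miR-199b-5p, miR-299a-3p and miR-411-5p. For miR-486a-5p they were miR-28a-3p (r = 0.94), miR-30a-3p, miR-143-3p, miR-500-3p and miR-329-3p. For miR-486a-3p the closest was miR-208b-3p (r = 0.97), a miRNA of slow muscle and heart, followed by miR-329-3p, miR-143-3p, miR-338-5p and miR-30a-3p. None of the 20 places was taken by a name of the red blood cell list described next. miR-15b-3p, among those closest to miR-451a, is however the opposite arm of miR-15b-5p, which is on that list.

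Other miRNAs abundant in red blood cells were called higher relative to the caput about as often as miRNAs at large. This holds for scaling to the library total with all 9 libraries. Of a list of 11, 10 were in the table and all 10 were tested. From caput to corpus 2 were called higher, against 19.0% of all tested miRNAs, miR-107-3p (a log2 change of 2.06, limma adjusted p = 0.0029) and miR-92a-3p (2.16, 0.0041), with a median of 1.05 over the list against 0.47 over all tested miRNAs. From corpus to cauda limma called 0 higher, against 14.0%, and 2 lower, where 17 of all 342 tested miRNAs were lower. The 2 were miR-92a-3p (-2.0, 0.0067) and miR-210-3p (-1.32, 0.038). At an unadjusted limma p under 0.05, 1 of the list was higher and 4 were lower. The median was -0.23 against 0.18. From caput to cauda 4 were higher, against 38.7%, led by miR-25-3p (1.70, 0.0014) and miR-16-5p (1.33, 0.0056), with a median of 0.70 against 0.81. With TMM that count fell to 1 of 10, with median-of-ratios factors and with totals without the miR-10 pair to 0, and without the second caput library to 2. Over all tested miRNAs these settings called 84 of 350, 80 of 346, 75 of 358 and 100 of 353 higher, in this order. In the test against a fold of 2 limma called 0 of the list in any comparison. Without the third caput library 6 of 10 were called higher from caput to corpus, where 96 of all 306 tested miRNAs were. From corpus to cauda 0 or 1 were lower without any 1 of the corpus or cauda libraries. With totals without the miR-10 pair 5 were lower there, where 56 of all 355 tested miRNAs were. The summed level of the list was 1764 to 4131 CPM in the caput libraries, 5085 to 6314 CPM in the corpus and 5380 to 6467 CPM in the cauda, so that the cauda did not stand apart from the corpus as it did for miR-486a-5p. Most of these miRNAs are also made by many other cell types.

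Markers of muscle, like miR-486, had their highest means in the cauda. Of 8 miRNAs of striated muscle 5 were in the table, and from corpus to cauda all 5 were called higher, against 14.0% of all tested miRNAs, with a median log2 change of 4.13 against 0.18 over all tested miRNAs. The smallest adjusted p by limma were those of miR-208b-3p (4.53, adjusted p = 4.2e-06) and miR-133b-3p (4.80, adjusted p = 5.5e-06). Only 1 of the 5, miR-133a-3p, reached a mean of 10 CPM before the cauda. The others entered the test through the segment in which they were highest, so that the counts for the cauda lend no support. The 5 also rose from caput to cauda (38.7% of all), with a median of 4.39, and 4 or 5 of them were called in both comparisons under each scaling and with each library left out. Their summed level was 55.5 to 197 CPM in the caput libraries, 121 to 167 CPM in the corpus and 2746, 4166 and 1412 CPM in the cauda. miR-208b-3p had no read in the first caput library, and miR-133a-5p had none in the second caput or the third corpus library (a count of 0 allows up to 0.265, 0.363 and 1.94 CPM in these libraries), while miR-206-3p, miR-208a-3p and miR-499-5p are not in the table.

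The 4 miRNAs of the smooth muscle list were called higher from corpus to cauda as well, against 14.0% of all tested miRNAs, with a median of 1.76, led by miR-143-3p (1.67, limma adjusted p = 5.4e-05) and miR-145a-3p (2.41, 0.0019). Their summed level was 50115 to 88995 CPM in caput libraries, 88423 to 121412 CPM in the corpus and 354786, 309027 and 291676 CPM in the cauda libraries. The count was 0 of 4 in the limma test against a fold of 2, and 2 of 4 with totals without the miR-10 pair and without the first corpus, the second corpus or the third cauda library. From caput to cauda it was 4 of 4, against 38.7%, and 2 of 4 under each other scaling, in the test against a fold of 2 and without the second caput library. Within the cauda the first library was highest in miR-486a-5p and in the smooth muscle sum, and the second in the striated muscle sum. The part of muscle RNA in the level of miR-486 was not tested.

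Of the 5 leukocyte miRNAs, all in the table, 4 were tested from caput to corpus and 0 were called by limma or limma-voom, 3 having an unadjusted p under 0.05, all higher in the corpus. Over all tested miRNAs 19.0% were called higher. Without the third caput library 2 were called, without the third cauda library 1, and with a replicate block 3. Over all tested miRNAs 96 of 306, 64 of 321 and 70 of 321 were called higher there, in this order. 1 of 5 was called higher from corpus to cauda, miR-155-5p (1.68, limma adjusted p = 0.025), against 14.0% of all. It was 0 with limma-voom, a pseudocount of 10 CPM, a filter of 50 CPM or the test against a fold of 2, and without the first or the second corpus or the first or the second cauda library. 3 were called higher from caput to cauda, against 38.7% of all, miR-155-5p (2.16, 0.0018), miR-223-3p (1.82, 0.0042) and miR-142a-3p, and this count was 3 under each scaling, 2 with a pseudocount of 10 CPM and 0 in the test against a fold of 2. miR-155-5p had means of 2.30 CPM in the caput, 3.42 CPM in the corpus and 13.0 CPM in the cauda. It thus entered the tests only through the segment in which it was highest, and its calls lend no support. The summed level of the leukocyte list was 231 to 530 CPM in caput libraries, 515 to 1149 CPM in the corpus and 392, 468 and 1601 CPM in the cauda libraries. In the caput and corpus the library with the most miR-451a also had the highest leukocyte sum, and in the cauda the library with the least miR-451a had the lowest. The highest leukocyte sum of the cauda was in the third library and the most miR-451a in the second. Such an order was not particular to leukocytes. The third caput library was also highest in the red blood cell, striated muscle and smooth muscle sums. The third corpus library was highest in the smooth muscle sum but lowest in the red blood cell and striated muscle sums. The first cauda library was lowest in the red blood cell sum but highest in the smooth muscle sum. miR-126a-3p and miR-126a-5p, of endothelium and platelets, were not called by limma or limma-voom in any comparison (0, 0 and 1 at an unadjusted p under 0.05, and 1 called from caput to cauda without the third caput library), and miR-122-5p of liver is not in the table.

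Epithelial miRNAs of the miR-200 family gave another course. Of 5, 2 were called higher from caput to corpus, against 19.0% of all tested miRNAs, miR-141-3p (1.88, limma adjusted p = 7.6e-05) and miR-200a-3p (1.2, 0.020). From corpus to cauda 0 were called by limma or limma-voom, against 14.0% of all called higher. There miR-141-3p was lower by less than 2-fold (-0.72, limma adjusted p = 0.035). It was the only 1 of the 5 at an unadjusted p under 0.05. With totals without the miR-10 pair 1 was called lower from corpus to cauda. miR-141-3p was called higher from caput to cauda (1.16, limma adjusted p = 6.4e-04), 1 of 5 against 38.7%, and none was in the test against a fold of 2. Without the second caput or any 1 corpus library 1 was called higher from caput to corpus, and without the third caput library 2 from caput to cauda. Under each of the 3 other scalings 1 was higher and 1 lower from caput to corpus, and 1 was lower and none higher from caput to cauda. Their sum was 20990 to 31796 CPM in caput libraries, 71973 to 84209 CPM in the corpus and 44552 to 61007 CPM in the cauda. The part of blood, leukocytes or epithelium in the levels of miR-451a and miR-144-3p was not tested.

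**Figure D5:**
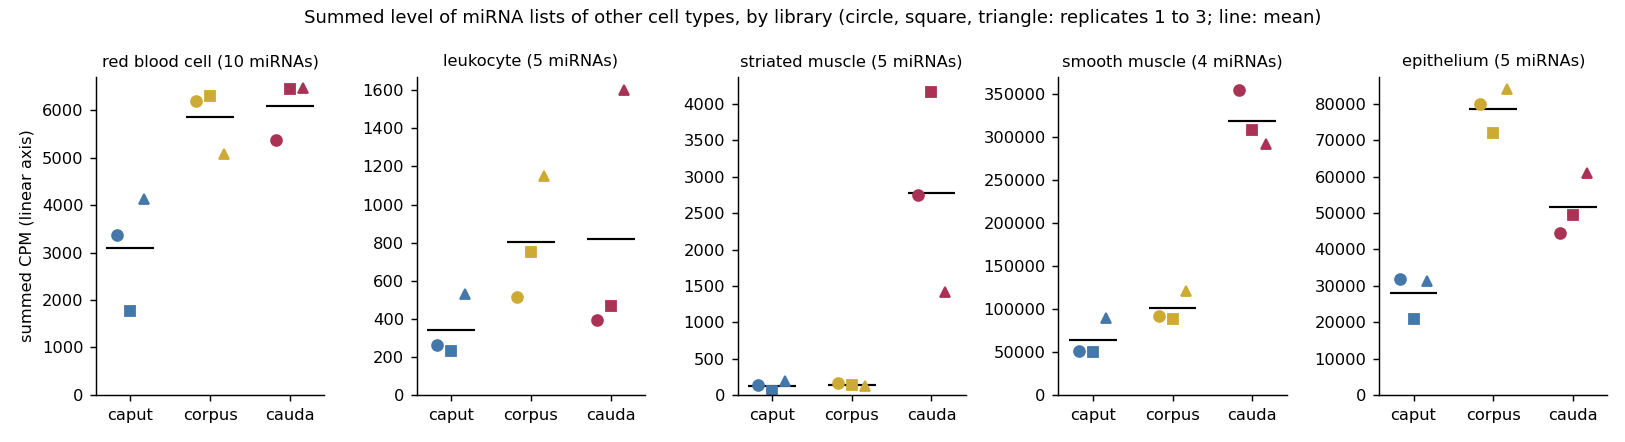
Summed CPM (linear axes from 0) of the miRNA lists of red blood cells, leukocytes, striated muscle, smooth muscle and epithelium in each library of the 3 segments, with a line at the segment mean. The striated muscle sum lies at 1412 to 4166 CPM in the cauda libraries and at 55.5 to 197 CPM in the others, and the red blood cell sum covers similar ranges in corpus and cauda.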

How the data were processed

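Small RNA of caput, corpus and cauda epididymosomes was sequenced in 3 libraries per segment (TruSeq small RNA, HiSeq-2000, 50 bp single end). The authors removed adapters and contaminants, counted reads on mature miRNAs with the miRDeep2 quantifier and deposited CPM values scaled to library size, which they compared with limma and edgeR. The submitters' processing notes name CASAVA 1.8.2, Bowtie 1.1.1 and limma, and the genome build and miRBase release are not given in the sources used here. Segments were taken from the sample labels. Each CPM value equalled a whole number of reads (tolerance 0.001, 100% of values) once divided by what 1 read was worth, which gave the read totals.

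Changes were tested with limma 3.58 in R 4.3 (lmFit and eBayes with trend, two-sided) on log2(CPM + 1) with all 9 libraries and segment as the only factor. The Benjamini-Hochberg adjustment covered every miRNA whose mean reached 10 CPM in either segment, and calls needed a 2-fold change and an adjusted p under 0.05. Ratios had 0.5 CPM added to each level. The interval of the read ratio was an exact binomial one. The miRNAs named were those of the 5 names, those of each list with the 2 smallest adjusted p among the miRNAs called, and the 5 closest to each profile by Pearson r, and others were named after their values had been seen. The members and lists were chosen with earlier results of these data known. P-values measure the spread between pools. Alternatives were TMM, median-of-ratios and totals without miR-10a-5p and miR-10b-5p, pseudocounts, filters, limma-voom, a replicate block, 6 libraries only, thresholds, near-identical names counted once, and each library left out. The test was checked on simulated data. Coordinates are those of GENCODE and RefSeq for GRCm38. Tables and plots used Python 3.11, pandas 2.3, scipy 1.17 and matplotlib 3.10.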

Additional observations from a re-analysis of the deposited data

How the results depend on the processing

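Of 323 alternative values of the log2 fold changes of the 5 names, 301 kept the side of the threshold, 22 lost the call and 0 reversed a call. The 301 include 22 values each of miR-144-3p and miR-486a-3p from caput to corpus. Most of these were below the level tested, so that their side was fixed in advance. The values of miR-486b-5p repeat those of miR-486a-5p. The sign turned in 8 that were not called before or after, those of miR-486a-5p and miR-486b-5p from caput to corpus and of miR-451a from corpus to cauda. The miR-486 calls into the cauda held in all that could be run. Those of miR-486a-3p lend no support, since it reached the level tested only in the cauda. From caput to corpus the count of names called fell from 1 to 0 with TMM, median-of-ratios factors, totals without miR-10a-5p and miR-10b-5p, and a test against a fold of 2, and was 0 to 1 with each library left out. From caput to cauda it fell from 5 to 3 under the same settings and a filter of 50 CPM, and was 3 to 5 with each library left out. With a test against a fold of 2 the miRNAs called were 11, 15 and 51 in place of 72, 65 and 171, and with a filter of 50 CPM 95 from caput to cauda. With each library left out they were 46 to 102, 32 to 83 and 132 to 202. The log2 ratio of miR-486a-5p to miR-451a, cauda minus caput, was 0.0211 to 1.63 with each library left out, and passed the exact permutation test without the second cauda library (adjusted p = 0.032). The cause was not tested. Whether the replicate numbers pair the samples is unclear and they were not taken to: r of deviations ran from -0.21 to 0.41 over 9 same-numbered pairs, 6 of them over 0.1, and from -0.45 to 0.18 over 18 others, and 8 of 9 libraries correlated best with their own number. With the number as a replicate block 83, 73 and 180 miRNAs were called, and 1, 3 and 5 of the names, and the ratios were 0.92, -0.02 and -1.41 with an adjusted exact permutation p of 0.333. Depth limits miR-486a-3p in caput and corpus (1 to 3 reads a library) and miR-144-3p (5 to 98 reads). Models of counts other than limma-voom were planned on recovered reads and not run.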
